A study of Drosophila melanogaster with 7 samples.

Results

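The genes examined here carry the steroid hormone ecdysone from its last activation step to its transcriptional response in the midgut of *Drosophila melanogaster*. They are *shd*, *EcR*, *usp*, *Eip75B*, *Eip74EF*, *br*, *Hr4* and *ftz-f1*, 8 of the 24204 genes and other features in the gene table, taken by name with earlier results of these data in view. RNA was sequenced from dissected midguts at day 53. Virgin females were kept at 10% oxygen (hypoxia), 20% oxygen (normoxia) or 40% oxygen (hyperoxia), in 3, 3 and 1 libraries. All groups carried the strain labelled sg-Gal4,UAS-GFP, in which a Gal4 driver switches on green fluorescent protein; the labels do not spell out which tissue the driver marks. Replicates 1 and 2 at 10% and at 20% oxygen are batch 1 in the labels, and replicate 3 of both groups and the only library at 40% are batch 2. Whether replicates are separate groups of flies is not stated in the labels; p-values therefore rest on the spread among libraries, and that spread may be technical.

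Ecdysone is released into the blood as a precursor, and peripheral tissues turn it into the active hormone 20-hydroxyecdysone with the P450 enzyme encoded by *shd* (shade). The active hormone binds a heterodimer of the nuclear receptors EcR and Ultraspiracle (*usp*), which switches on early genes encoding transcription factors, among them *Eip75B*, *Eip74EF* and *br*; these act on later genes. In the adult female midgut the pathway is known for its part in the growth and renewal of the epithelium, where *Eip75B* and *br* act in intestinal stem cells and their daughters.

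The libraries held 19.22 to 22.22 M counts (M for mega), and the batches differed widely. Transcripts of the mitochondrial genome took 61.0%, 64.0% and 71.0% of counts in batch 2 at 10%, 20% and 40% oxygen, against 4.10% to 4.68% in batch 1, which left 5.73 to 7.49 M other counts per library in batch 2. Levels below are therefore given on the TMM scale (counts per M counts, CPM, after a scaling factor that equalises the bulk of the genes). A level of 3 counts, taken as the detection floor, stood at 0.257 to 0.332 CPM on that scale in batch 2 and at 0.0827 to 0.0923 CPM in batch 1. Markers of the absorptive cells of the midgut fitted the tissue label: the 8 enterocyte markers, digestive enzyme genes among them, were above 0 in every library, with a summed level of 18360 to 59380 CPM. Visceral muscle and tracheal markers were far higher in batch 2, with muscle sums of 10270 to 12400 against 725.2 to 1013 CPM in batch 1 and tracheal sums of 168 to 201 against 24.5 to 31.3 CPM. Their part in the differences between batches below was not tested.

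The genes differed widely in level. Per unit of transcript length (TPM, transcripts per M transcripts), *usp* stood highest in the 4 libraries of batch 1 at 10.1 ± 0.464 TPM (mean ± SD, n = 4), followed by *Eip75B* at 8.68 ± 0.766 TPM. The range of *usp* (9.37 to 10.4 TPM) overlapped that of *Eip75B* (7.73 to 9.56 TPM). Next came *shd* at 4.64 ± 0.610 TPM and *ftz-f1* at 4.04 ± 0.418 TPM, again with overlapping ranges. *EcR* at 1.69 ± 0.158 TPM and *Eip74EF* at 1.29 ± 0.107 TPM were lower, and their ranges did not overlap. *br* at 0.171 ± 0.114 TPM and *Hr4* at 0.0577 ± 0.0234 TPM were the lowest. They had 10 to 57 and 12 to 24 counts per library in batch 1, above the floor. Among the 13408 genes detected in batch 1, *usp* ranked at the 73.0 percentile and *Hr4* at the 19.5 percentile. Transcripts of the activating enzyme and of both receptor partners were thus present, with *usp* far above *EcR* per length, while *br* and *Hr4* stood low.

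**Figure D1:**
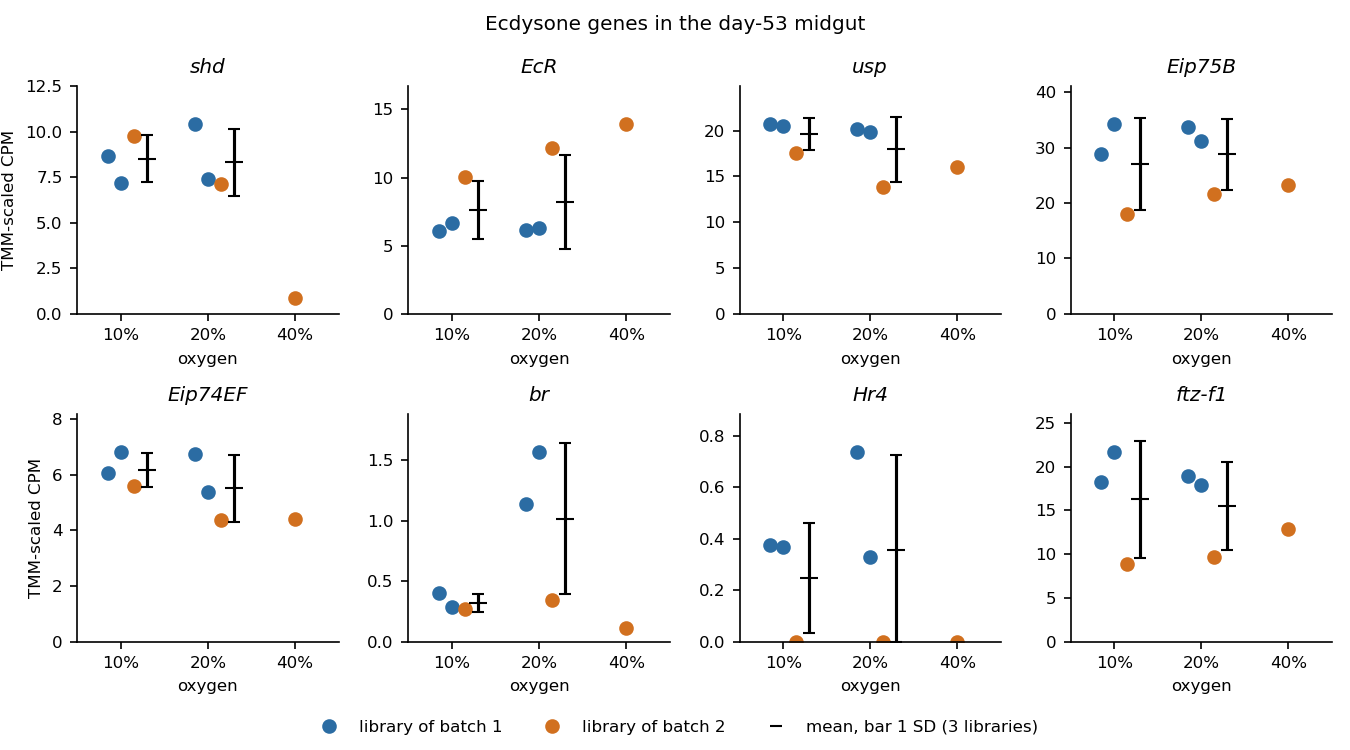
Level of each of the 8 genes (TMM-scaled CPM, linear axis from 0) in every library, by oxygen level; points are libraries coloured by batch, and the black bar is the mean with 1 SD over 3 libraries. The 40% library stands apart for *shd*, at 0.885 CPM with every other library at 7.12 CPM or higher, while for *EcR* and *ftz-f1* the points separate by batch.

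*shd*, on chromosome arm 3L at positions 14614458 to 14622205 of assembly BDGP6.54, encodes the mitochondrial P450 that hydroxylates ecdysone. Its level was 8.64, 7.18 and 9.75 CPM in replicates 1, 2 and 3 at 10% oxygen, 10.4, 7.41 and 7.12 CPM at 20%, and 0.885 CPM at 40%. The 10% and 20% libraries overlapped, and the 40% library lay far below all of them. At 40% against 20% oxygen the log2 fold change was -3.23 (SE 0.45), with an adjusted p of 0.0436 by edgeR's quasi-likelihood test with Benjamini-Hochberg adjustment. At 40% against 10% it was -3.26 (SE 0.44, adjusted p = 0.0507). The gene was chosen with this fall known, so both values describe it and test nothing; 3.17% of the 10068 features were called at 40% against 20% and 1.16% at 40% against 10%. In a single library a fall may also come from fewer cells that express the gene, and less RNA per cell and fewer cells cannot be told apart in bulk tissue.

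The fall of *shd* rested on few counts. It had 8 counts at 40% oxygen, against 83 at 20% and 108 at 10% in the same batch. Within batch 2 alone the level at 40% was 8.05-fold lower than at 20% (95% exact counting interval 3.90 to 19.3) and 11-fold lower than at 10% (5.4 to 26.2). Scaled to counts outside the mitochondrial genome, it was 8.50-fold lower (4.12 to 20.3) than at 20% and 10.3-fold lower (5.06 to 24.5) than at 10%. These intervals cover counting error only, and no second 40% library checks them. The call at 40% against 20% was lost when any 1 of the 6 other libraries was left out, at adjusted p of 0.0588 to 0.110 and log2 fold changes of -3.63 to -3.0; features called over the whole table then numbered 0 to 69, against 319 with all libraries. In batch 2 against batch 1 *shd* differed by a log2 fold change of 0.02 (SE 0.23, adjusted p = 0.946) on the TMM scale, and by -1.16 on log2 of TPM plus 1, a scale on which the median of all features moved by -0.96.

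*shd* is also known to be expressed in the Malpighian tubules, the excretory organ that joins the gut behind the midgut. The summed level of 8 tubule markers was 310.2, 176 and 164 CPM at 10% oxygen, 283, 321 and 210.3 CPM at 20%, and 118 CPM at 40%. It was thus lowest in the 40% library, though less far below the others than *shd*, and all 8 markers were above 0 in all 7 libraries. *Uro*, the urate oxidase gene of the tubule, stood at 85.5, 8.22 and 47.3 CPM at 10% oxygen, 68.0, 126.5 and 97.9 CPM at 20%, and 15.6 CPM at 40%. In replicate 2 at 10%, *Uro* was lower than in the 40% library while *shd* was at 7.18 CPM. Of the 8 tubule markers, at 40% against 20% oxygen 5 had a log2 fold change below 0 and 3 above, with a median of -0.66 beside -0.03 over all features. None was called lower, *Nha1*, a sodium/proton exchanger gene, standing at -0.79 (SE 0.29, adjusted p = 0.206). *Irk2*, a potassium channel gene of the tubule, was called higher at 40% (34.6 CPM against 18.4 to 23.8 CPM at 20%; log2 0.84, SE 0.12, adjusted p = 0.0437). The enterocyte sum was lowest at 40% too, at 18360 CPM against 30570 to 59380 CPM at 20%. The part of the tissue makeup in the level of *shd* was not tested.

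**Figure D2:**
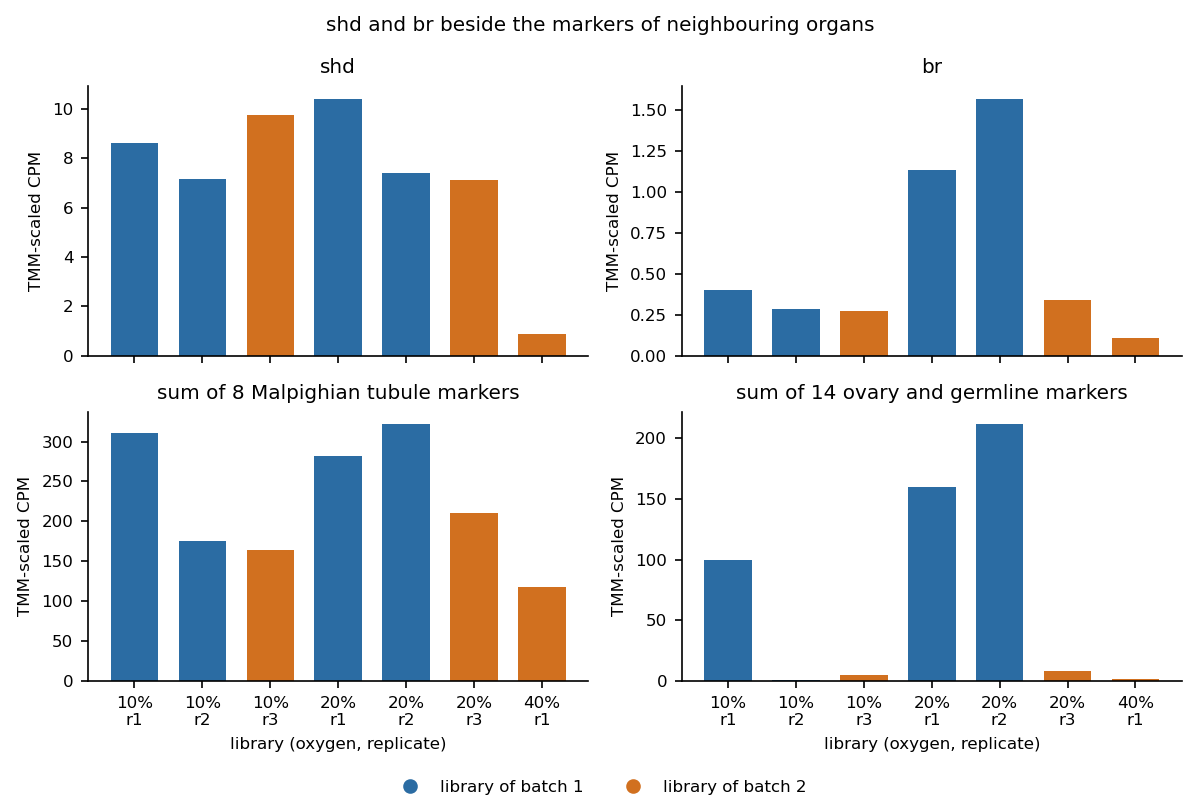
Bars give the level of *shd* and of *br* (top, TMM-scaled CPM) above the summed level of 8 Malpighian tubule markers and of 14 ovary and germline markers (bottom) in the same 7 libraries, coloured by batch. *shd* is low in the 40% library alone, whereas *br* and the ovary sum are both highest in replicates 1 and 2 at 20% oxygen.

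The patterns most like that of *shd* across the 7 libraries, with the batch means removed, belonged to *CG7631*, *CG15254*, *CG11248*, *CG2120* and *CG10051* (Pearson r of 0.996 to 0.997 over 7 libraries, among 6246 features). All 5 had their lowest level in the 40% library. The measure included that library, where *shd* lay far below the others, so it favoured features low there. Their shared low at 40% is therefore no separate result. *CG7631* stood at 66.9 CPM at 40%, against 153.8 to 281 CPM at 20% and 139.6 to 393 CPM at 10%. *CG15254* stood at 18.2 CPM at 40%, against 50.4 to 63.0 CPM at 20% and 52.1 to 61.0 CPM at 10%. *CG10051* stood at 2.10 CPM at 40%, against 9.18 to 28.4 CPM at 20% and 10.3 to 24.8 CPM at 10%.

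The annotated transcripts of *shd* encode 2 proteins. *shd-RB* and *shd-RD* share the first base 14614458 and encode 540 residues, and *shd-RC* starts inside the gene at 14619830 and encodes 433 residues. The shorter form took 54.2%, 43.6% and 30.6% of the gene's TPM at 10% oxygen, 34.2%, 34.1% and 0% at 20%, and 0% at 40%. With 8 counts in all at 40%, its absence there says little.

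Among the hormone receptor genes, *EcR* encodes the ecdysone-binding receptor and *usp* its partner, the fly counterpart of the vertebrate retinoid X receptors. *EcR* lies on chromosome arm 2R at 6087873 to 6169087 and *usp* on the X chromosome at 2038798 to 2042311, both on the minus strand. *EcR* stood at 6.10, 6.66 and 10.0 CPM at 10% oxygen, 6.12, 6.31 and 12.2 CPM at 20%, and 13.9 CPM at 40%. The 3 batch 2 libraries were the 3 highest, and in batch 1 the oxygen groups overlapped. *usp* stood at 20.7, 20.5 and 17.6 CPM at 10%, 20.2, 19.9 and 13.9 CPM at 20%, and 16.0 CPM at 40%, with the batch 2 libraries lowest. An exon of *usp* overlaps *Actn* on the same strand and *CG4313* on the other, and *Actn*, encoding the muscle protein alpha-actinin, had 733 to 1126 counts in batch 2 and 474 to 655 in batch 1. Reads of *usp* and *Actn* could be split between them, so the value of *usp* is uncertain.

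Neither receptor gene passed the threshold in an oxygen comparison. At 10% against 20% oxygen, *EcR* differed by a log2 fold change of -0.06 (SE 0.11, adjusted p = 0.938) and *usp* by 0.14 (SE 0.09, adjusted p = 0.820). At 40% against 20%, *EcR* stood at 0.30 (SE 0.17) and *usp* at 0.10 (SE 0.14), and at 40% against 10% at 0.36 (SE 0.17) and -0.04 (SE 0.14). On the TPM scale the sign of both turned at 40% against 20%, where the median of all features also shifted by -0.23 with a pseudocount of 1 and by -0.41 with one of 0.1. The change of *EcR* at 40% against 20% was 1.14-fold within batch 2, with a counting interval of 0.893 to 1.46.

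The batches separated the receptor genes more than oxygen did. In batch 2 against batch 1, *EcR* was higher by a log2 fold change of 0.83 (SE 0.12, adjusted p = 0.00297) on the TMM scale. On the log2 scales of TPM plus 1 and plus 0.1 it came to -0.45 and -0.74. The median of all features moved by -0.96 and -1.35 on those scales, so *EcR* fell less than the median there. *usp* was lower at -0.35 (SE 0.09, adjusted p = 0.0249), and this call was lost under 4 of the 13 alternatives. Among them were leaving out replicate 1 at 10% (adjusted p = 0.0527), replicate 2 at 20% (0.0614) and replicate 3 at 20%. In this contrast 55.6% of the 9278 features were called, so a call between the batches sets no gene apart.

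The early response genes encode transcription factors induced directly by the hormone and its receptor. *Eip75B*, a nuclear receptor that binds haem and represses other response genes, lies on 3L at 17950953 to 18064696. It stood at 28.9, 34.3 and 18.1 CPM at 10% oxygen, 33.7, 31.2 and 21.6 CPM at 20%, and 23.2 CPM at 40%. The batch 1 libraries were all above the batch 2 libraries, and in batch 1 the oxygen groups overlapped. *Eip74EF*, which encodes ETS-domain factors, lies on 3L at 17558672 to 17619325. It stood at 6.08, 6.83 and 5.60 CPM at 10%, 6.77, 5.4 and 4.37 CPM at 20%, and 4.42 CPM at 40%, a narrow range in which 10% and 20% overlapped and the 40% library lay within the range of 20%.

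Both early genes stayed short of the threshold in all 3 oxygen comparisons. At 10% against 20%, *Eip75B* differed by -0.11 (SE 0.10, adjusted p = 0.860) and *Eip74EF* by 0.17 (SE 0.15, adjusted p = 0.857). At 40% against 20% *Eip75B* stood at 0.18 (SE 0.16) and *Eip74EF* at -0.08 (SE 0.25), and at 40% against 10% at 0.28 (SE 0.16) and -0.25 (SE 0.24). The sign of *Eip75B* turned on the TPM scale and with no batch term. Within batch 2 the level at 40% was 1.07-fold that at 20% for *Eip75B* (0.890 to 1.30) and 1.01-fold for *Eip74EF* (0.651 to 1.56), counting error only. Between the batches *Eip75B* was lower in batch 2 (-0.68, SE 0.11, adjusted p = 0.00478). It was lower on the TPM scales as well, where the median of all features also moved, by -0.96 and -1.35. With the trend on gene length removed the difference of *Eip75B* was -0.25 (adjusted p = 0.247). *Eip74EF* differed by -0.32 (SE 0.16, adjusted p = 0.151).

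*br* (broad), a family of zinc finger factors with a BTB domain, lies on the X chromosome at 1575132 to 1664869. It was expressed at a low level, at the edge of detection in batch 2. It stood at 0.403, 0.284 and 0.271 CPM at 10% oxygen, 1.14, 1.57 and 0.343 CPM at 20%, and 0.111 CPM at 40%. Counts were 14, 10 and 3 at 10%, 37, 57 and 4 at 20%, and 1 at 40%. The 2 batch 1 libraries at 20% were the highest, and in batch 2 no library exceeded 4 counts. At 10% against 20% oxygen the log2 fold change was -1.66 (SE 0.43, unadjusted p = 0.0113, adjusted p = 0.7003), the widest difference of the 8 genes in that comparison. It did not pass by DESeq2 (adjusted p = 0.231) or by voom (0.370) either. Only a ratio with a wide counting interval can be given within batch 2: 0.322 for 40% over 20% (0.00654 to 3.26).

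Markers of ovary and germline, a tissue that lies beside the gut in the abdomen, moved with *br*. The sum of 14 such markers was 99.6, 1.16 and 4.88 CPM at 10% oxygen, 159.6, 211.5 and 8.75 CPM at 20%, and 1.77 CPM at 40%, highest in the same 2 libraries as *br*. Of the 14 markers, 12, 11 and 12 were above 0 at 10%, 13, 14 and 10 at 20%, and 4 at 40%, where the egg-shell genes *Cp36* and *Vm26Ab* and the germline gene *vas* were among the 10 at 0. In replicate 1 at 10% the sum was 99.6 CPM while *br* was at 0.403 CPM. The part of ovary RNA in the level of *br* was not tested. *Mur2B*, on the strand opposite to *br*, shares exon sequence with it and had 40.1 to 823 counts per library.

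*Hr4*, a nuclear receptor of the early-late class known for timing steroid pulses in larvae, lies on X at 1941940 to 2007956. It had 13, 13 and 0 counts at 10% oxygen, 24, 12 and 0 at 20% and 0 at 40%. All batch 2 libraries were thus at 0 and all batch 1 libraries above the floor, at 0.331 to 0.738 CPM. The difference between batches was called (adjusted p = 0.0229). Its fitted fold depends on the prior count and is not given, since 3 counts correspond to 0.257 to 0.332 CPM in batch 2, close to the lowest level in batch 1. At 10% against 20% *Hr4* differed by -0.51 (SE 0.57, adjusted p = 0.882).

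*ftz-f1* encodes the nuclear receptor that makes prepupal tissues competent for the next hormone pulse, and lies on 3L at 18750607 to 18801309. It stood at 18.2, 21.7 and 8.85 CPM at 10% oxygen, 18.97, 17.9 and 9.69 CPM at 20%, and 12.8 CPM at 40%. The 40% library lay above both other batch 2 libraries and below all of batch 1. At 10% against 20% the log2 fold change was 0.04 (SE 0.11, adjusted p = 0.969). At 40% against 20% it was 0.49 (SE 0.17, adjusted p = 0.198) and at 40% against 10% it was 0.45 (SE 0.17, adjusted p = 0.251). Within batch 2 the ratio was 1.32 over 20% (1.01 to 1.73) and 1.45 over 10% (1.1 to 1.92) on the TMM scale, and over counts outside the mitochondrial genome 1.25 (0.959 to 1.64) and 1.55 (1.17 to 2.04). With no batch term its sign turned in both comparisons. In batch 2 against batch 1 it was lower at -1.03 (SE 0.12, adjusted p = 0.00149), a call that held under all 13 alternatives tried.

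In the comparison of 10% with 20% oxygen as a whole, 0 of the 8 genes were called by edgeR, beside 0 of 9278 features (percentage called 0). At an unadjusted p below 0.05, 584 features passed by edgeR, *br* among them; by adjusted p 124 passed by DESeq2 and 3 by voom, none of the 8 among those. With counts simulated for this comparison, the test found 41 of 100 genes with a 2-fold change and 89 of 100 with a 4-fold change. The changed genes were drawn only from genes with higher mean counts than *br* and *Hr4*, so these rates do not cover those 2 genes. A missed threshold therefore does not show that hypoxia left these genes at the same level. For 40% against 20% the simulated rates were lower, at 3 of 100 for a 2-fold and 52 of 100 for a 4-fold change. A missed threshold at 40%, in these genes or in the pathway lists below, thus shows still less. At 40% oxygen *shd* alone of the 8 was called against 20%, and none against 10%, beside 3.17% and 1.16% of all features. Between batches 5 of the 8 were called: *EcR* higher, and *usp*, *Eip75B*, *Hr4* and *ftz-f1* lower. Of all features 28.7% were called higher and 26.9% lower in batch 2.

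**Figure D3:**
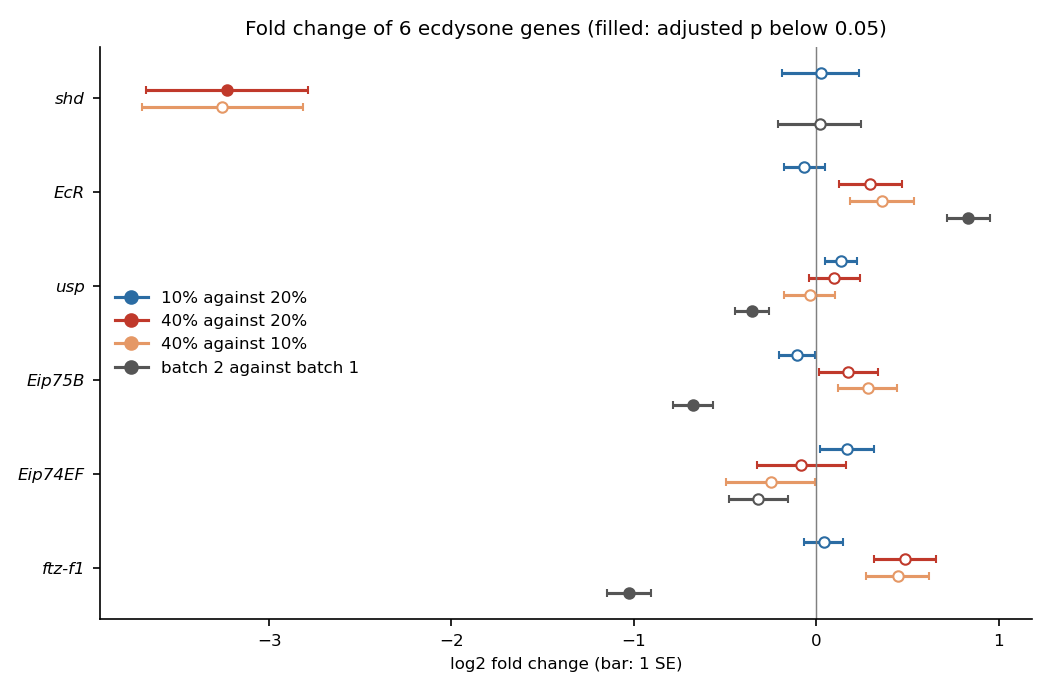
Log2 fold change (point, bar 1 SE) of the 6 genes with at least 3 counts in all 7 libraries, for 10% against 20% oxygen, 40% against 20%, 40% against 10%, and batch 2 against batch 1; filled points have an adjusted p below 0.05. *shd* stands at -3.23 and -3.26 at 40% oxygen, and the filled points of *EcR*, *usp*, *Eip75B* and *ftz-f1* belong to the batch contrast.

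The share of EcR-B1 among *EcR* transcripts and the main isoforms of *Eip75B* also separated by batch. *EcR* has 3 protein forms that differ in their amino-terminal part and share the DNA-binding and hormone-binding domains: EcR-A (849 residues), EcR-B1 (878 residues) and EcR-B2 (669 residues). EcR-A took 9.40%, 15.7% and 77.8% of the gene's TPM at 10% oxygen, 23.6%, 29.1% and 58.2% at 20%, and 26.0% at 40%. EcR-B1 took 61.4%, 44.2% and 9.52% at 10%, 45.1%, 70.9% and 3.85% at 20%, and 8.91% at 40%. EcR-B1 was the leading form in the 4 batch 1 libraries and the smallest in the 3 batch 2 libraries. EcR-B2 took 29.2%, 40.1% and 12.6% at 10%, 31.3%, 0% and 37.98% at 20%, and 65.1% at 40%, where it was the leading form. The batches overlapped for EcR-A, through the 40% library, and for EcR-B2. These shares rest on 111 to 235 counts of the gene per library, divided by the authors' estimation among transcripts that overlap over most of their length. The 0% of EcR-B2 in replicate 2 at 20% stood beside 31.3% in replicate 1 of the same group and batch.

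*Eip75B* has 7 annotated transcripts, each with its own start. Those that carried most of its signal were *Eip75B-RD*, which starts farthest downstream (first base 17961814) and encodes the shortest protein (906 residues), and *Eip75B-RC* (first base 17999821, 1199 residues). *Eip75B-RD* took 69.2%, 70.5% and 35.6% of the gene's TPM at 10% oxygen, 69.0%, 75.3% and 24.3% at 20%, and 8.77% at 40%. *Eip75B-RC* took 26.6%, 26.6% and 58.9% at 10%, 25.3%, 22.8% and 66.8% at 20%, and 83.2% at 40%. In batch 1 the short form led in all 4 libraries, in batch 2 *Eip75B-RC* led in all 3, and the 40% library lay beyond both other batch 2 libraries. In counts, *Eip75B-RD* had 12 of 210 at 40%, against 41 of 252 at 20% and 51 of 200 at 10% in batch 2. Its level was 0.116 TPM at 40%, against 0.435 TPM at 20% and 0.5365 TPM at 10% in that batch, while *Eip75B-RC* stood at 1.104 TPM at 40%, against 1.199 TPM at 20% and 0.888 TPM at 10%. The mitochondrial share, which lowers the TPM of all other transcripts, was highest at 40%, so TPM does not order *Eip75B-RC* across these libraries. On the TMM scale the whole gene stood at 18.1, 21.6 and 23.2 CPM in batch 2 at 10%, 20% and 40%. *Eip75B-RC* took 65.9%, 70.2% and 82.8% of its counts there, so both values were highest at 40%. *Eip75B-RD* was lowest at 40% in counts, share and TPM.

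Between 10% and 20% oxygen none of these shares could be told apart. The differences of the batch-wise means were -2.62 percentage points for EcR-A, -1.56 for EcR-B1, 4.18 for EcR-B2, -0.932 for *Eip75B-RC* and 2.27 for *Eip75B-RD*. An exact two-sided permutation test within batches gave p of 0.667 to 1 over these 5 shares, and its 12 arrangements cannot give a p below 0.167. Similar shifts with batch occurred in the other response genes. Transcripts of *Eip74EF* from its distal start took 57.8%, 77.9% and 29.0% at 10% oxygen, 54.6%, 61.7% and 25.3% at 20%, and 29.0% at 40%. *ftz-f1-RB*, which encodes the longest protein of its gene (1027 residues), took 70.9%, 65.9% and 56.8% at 10%, 67.8%, 78.2% and 31.9% at 20%, and 19.4% at 40%. In all 4 genes the batch 2 libraries lay outside the batch 1 range for at least 1 form. The sequenced fragments were shorter in batch 2 (230.3 to 254.7 bases on average, shortest at 40%) than in batch 1 (273.2 to 280.7 bases), and the part of that in the shares was not tested.

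**Figure D4:**
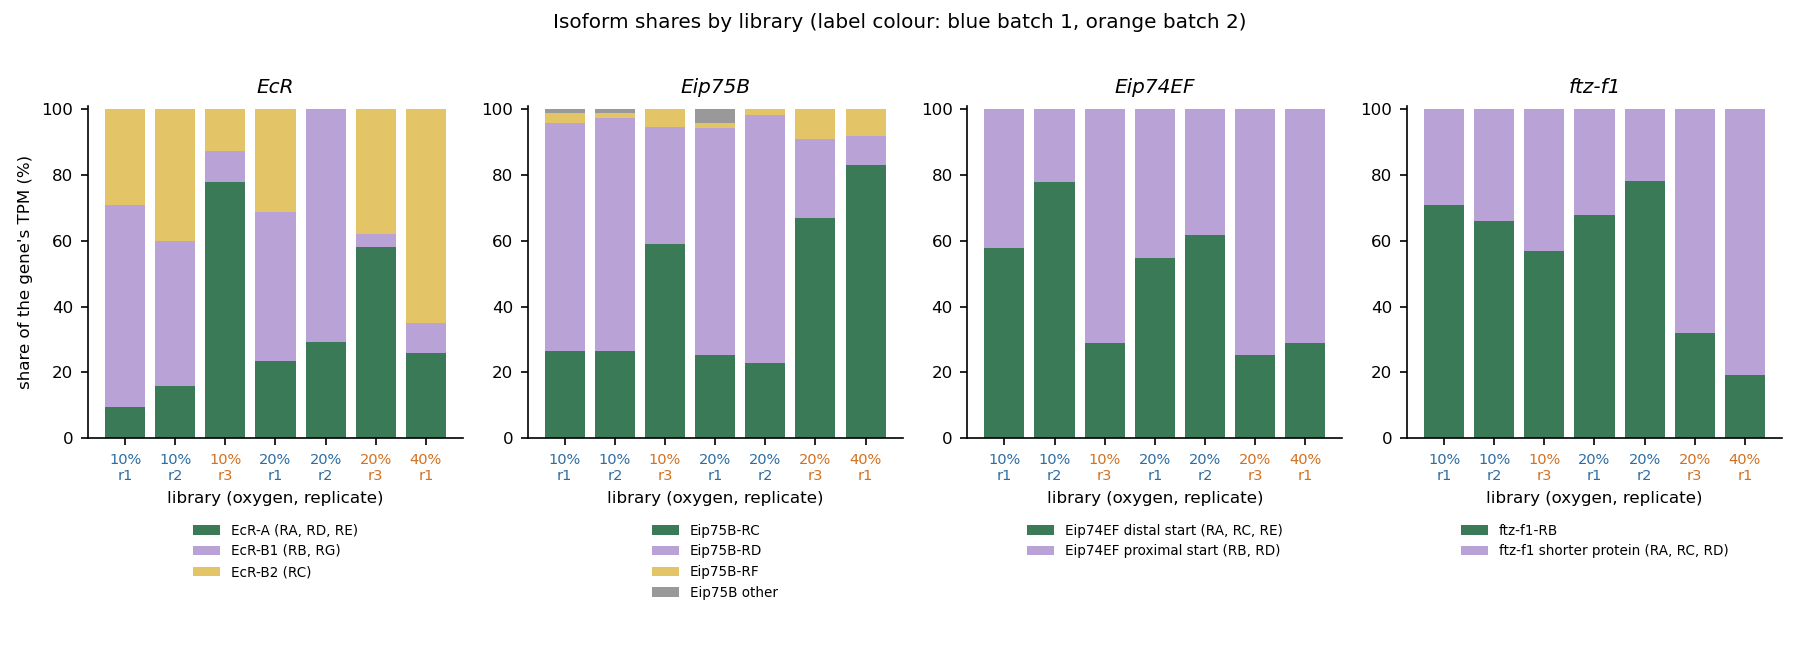
Share of each gene's TPM (percent, stacked bars) taken by the isoform classes of *EcR*, *Eip75B*, *Eip74EF* and *ftz-f1* in each library; label colour marks the batch. *Eip75B-RC* runs from 58.9% to 83.2% in batch 2 and from 22.8% to 26.6% in batch 1, with the 40% library highest.

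The other genes of the pathway numbered 77 in 7 lists chosen by function, and 0 of the 53 tested were called at 10% against 20% oxygen. At 40% against 20%, 60 were tested, of which *Eip93F* was called higher and *MsrA* lower, and the same 2 genes were called at 40% against 10%. The background was 1.41% of features called higher and 1.76% lower at 40% against 20%, and 0.447% and 0.715% at 40% against 10%. The 2 comparisons share the 40% library. The median log2 fold change of the 60 was -0.08 at 40% against 20%, beside -0.03 over all features.

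*MsrA*, which encodes a methionine sulfoxide reductase and was first described as the ecdysone-induced gene Eip71CD, was lower at 40%. Its level was 158, 145 and 123 CPM at 10% oxygen, 176, 140.3 and 123 CPM at 20%, and 21.7 CPM at 40%. The 40% library lay far below the 6 others, which overlapped. The log2 fold change was -2.52 (SE 0.19, adjusted p = 0.0331) at 40% against 20% and -2.49 (SE 0.19, adjusted p = 0.0432) at 40% against 10%. Leaving out any 1 of the other libraries gave adjusted p of 0.0494 to 0.0985 against 20%, past the threshold only without replicate 3 at 10%. Against 10% the call was lost without any 1 of them (0.0514 to 0.14), with DESeq2 size factors (0.0504) and with the length trend removed (0.0538). With no batch term both calls were lost (adjusted p = 0.424 and 0.555).

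*Eip93F*, which encodes a factor that directs adult development and autophagy, was higher at 40%. Its level was 25.5, 23.9 and 16.2 CPM at 10% oxygen, 25.3, 21.8 and 18.3 CPM at 20%, and 40.5 CPM at 40%, above all other libraries. The log2 fold change was 1.23 (SE 0.15, adjusted p = 0.0374) against 20% and 1.24 (SE 0.15, adjusted p = 0.0450) against 10%. The call against 20% was lost without any 1 of the 6 other libraries (adjusted p of 0.0588 to 0.1) and on the TPM scale, where the difference was 0.37 with a pseudocount of 1 (adjusted p = 0.136). It was also lost with the length trend removed (0.997, adjusted p = 0.103) and with no batch term (0.89, adjusted p = 0.556). Against 10% it was lost with those settings too, and with DESeq2 size factors (adjusted p = 0.0537), with mitochondrial transcripts left out (0.0546) and with any 1 of the other libraries left out (0.0601 to 0.14).

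*ImpL2*, which encodes a secreted antagonist of insulin-like peptides, stood at 59.9 CPM at 40%, against 10.2, 10.9 and 12.2 CPM at 20% and 16.8, 19.5 and 4.97 CPM at 10%. The 40% library was the highest, yet the log2 fold change of 2.86 (SE 0.63) was not called by edgeR (adjusted p = 0.0809), while DESeq2 called it at 2.88 (adjusted p = 0.0014). At 40% against 10% it was 2.67 (SE 0.69, adjusted p = 0.126) by edgeR and 2.73 (adjusted p = 0.00333) by DESeq2. DESeq2 called 975 of 10068 features at 40% against 20%, where edgeR called 319. Against 20%, leaving out any 1 of the other libraries gave log2 fold changes of *ImpL2* of 2.30 to 4.37. The lowest came without replicate 3 at 10% and the highest without replicate 3 at 20%. Whether *ImpL2* passed the threshold depended on the library left out.

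**Figure D5:**
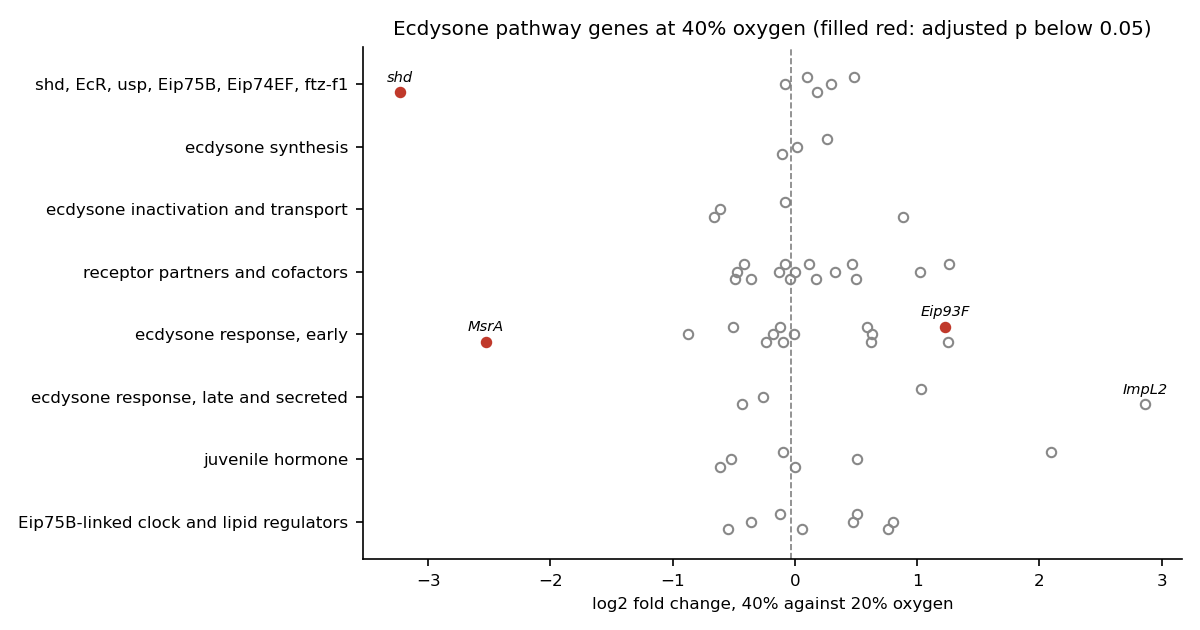
Log2 fold change at 40% against 20% oxygen for 6 of the 8 genes (top row) and for 53 of the 60 tested pathway genes by list, leaving out 7 with under 3 counts in either batch 2 library; the dashed line is the median of all features. *shd*, *MsrA* and *Eip93F* are the filled points, and *ImpL2*, at 2.86, was not called by edgeR but was by DESeq2.

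Genes that make the hormone, known for their activity in the prothoracic gland and the ovary, were mostly near or below the detection floor. Of the 11 listed genes for ecdysone synthesis 4 passed the filter on low counts at 10% against 20%, with none called, and 8 at 40% against 20%, with none called. At 40%, 5 of those 8 had under 3 counts in either batch 2 library, so no median is given. *Npc1a*, encoding a sterol transporter used by many cells, stood at 40.4, 39.2 and 73.6 CPM at 10%, 44.5, 42.0 and 55.6 CPM at 20%, and 58.7 CPM at 40%. *sad*, a P450 of the synthesis pathway, stood at 0.461, 0.255 and 5.69 CPM at 10% oxygen, 0.338, 0.937 and 4.29 CPM at 20%, and 5.86 CPM at 40%, high in batch 2 only. Of the 4 genes for inactivation and transport none was called. *Oatp74D*, which encodes the importer that lets ecdysone into cells, was at 4.89, 4.11 and 4.97 CPM at 10%, 4.27, 5.02 and 4.46 CPM at 20%, and 4.42 CPM at 40%, a level shared by all libraries. *Atet*, an ABC transporter gene known for loading the hormone into vesicles, was at 11.1 CPM at 40% against 16.6 CPM at 20% in batch 2 (log2 -0.66, SE 0.21, adjusted p = 0.170).

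By edgeR the remaining genes of these lists held no call besides *MsrA* and *Eip93F*. Of 16 receptor partners and cofactors 15 were tested at 40% against 20%, with a median log2 fold change of 0.00; the most abundant were the chaperone genes *Hsc70-4* (0.12, SE 0.13) and *Hsp83* (-0.04, SE 0.18) and the chromatin remodelling gene *Nurf-38* (-0.47, SE 0.10, adjusted p = 0.0701). Of the 14 early response genes outside the 8, 13 were tested, with a median of -0.10; *Cth*, encoding cystathionine gamma-lyase, stood at -0.10 (SE 0.19) and *cdi*, a protein kinase gene, at -0.24 (SE 0.12). Of 17 late and secreted products 6 were tested, among them *Ldh*, lactate dehydrogenase, at -0.44 (SE 0.31). Of 7 genes of juvenile hormone, which opposes ecdysone in development, 6 were tested, with a median of -0.05; the hydrolase gene *Jheh3* stood at -0.52 (SE 0.11, adjusted p = 0.0708). The 8 clock and lipid regulators tied to *Eip75B* had a median of 0.27; the clock genes *Pdp1* (0.80, SE 0.19, adjusted p = 0.0916) and *cry* (-0.55, SE 0.11, adjusted p = 0.0677) lay on opposite sides of 0.

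The patterns most like that of *Eip75B*, by the same measure as for *shd*, were those of *Unc-115a* (r = 0.995), *CG30015*, *CG17715*, *Npc2a* and *lncRNA:CR45102* (r = 0.949), over 7 libraries and 6246 features. *Unc-115a*, a gene for an actin-binding protein, stood at 142, 162.5 and 107 CPM at 10% oxygen, 161, 150.4 and 125 CPM at 20%, and 135 CPM at 40%. As in *Eip75B*, replicate 2 was the highest library at 10% and replicate 1 at 20%, and replicate 3 was the lowest in both groups. Replicate 3 was also the lowest of both groups in *CG30015*, but the highest of both in *CG17715*, *Npc2a* and *lncRNA:CR45102*. The measure removes the batch means, so the difference between batches is not part of the likeness.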

How the data were processed

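Midgut RNA of 7 samples was sequenced by DNBSEQ from strand-specific mRNA libraries, per the labels' protocols. The submitters' processing notes name STAR 2.7.11b and Salmon 1.10.3, with settings and genome build not given in the sources used here. The authors deposited, per the file headers, expected counts, TPM and effective lengths for 41539 transcripts, all of the length that the Ensembl annotation of BDGP6.54 gives; coordinates are from it. For each gene the deposited expected counts of its transcripts were added up and rounded to whole numbers; the deposited TPM values were summed per gene or isoform class.

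edgeR 4.0.16 (R 4.3.3, TMM, filterByExpr, quasi-likelihood) was run on the whole table with batch as covariate: 6 libraries for 10% against 20% oxygen (and the batch coefficient, chosen after seeing the data), all 7 for 40%, whose single library was assumed to vary like the others. Calls had a Benjamini-Hochberg adjusted p below 0.05; SE are those implied by the test statistic. Alternatives were DESeq2 1.42.0, limma 3.58.1 (voom and log2 of TPM plus 1 or 0.1), other scalings, filters and length corrections, no batch term, and leaving out libraries. Counting intervals are exact at 95%. Likeness used CPM of at least 5 and a prior count of 1. In simulation, 8 of 138 calls at 10% against 20% were unchanged genes (9104 genes run); for 40% against 20%, 3 of 100 simulated 2-fold changes and 52 of 100 simulated 4-fold changes were found, and 7 of the 62 calls were unchanged genes (9895 genes run).

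Same-numbered libraries at 10% and 20% share a batch in the labels, and their deviations correlated at 0.409, 0.411 and 0.709; with batch removed, numbers 1 and 2 gave -0.0504. The 8 genes and the gene lists were chosen with earlier results of these data known. Of other genes, every called pathway gene was named, otherwise at most 3 per list by mean TPM, and the 5 most similar features for *shd* and *Eip75B*. Sequences were not used here.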

Additional observations from a re-analysis of the deposited data

How the results depend on the processing

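At 10% against 20% oxygen 0 of the 8 genes were called under all 19 alternatives, the replicate block (replicate number in place of batch) included. Leaving out 1 library gave ranges of -0.174 to 0.242 for *shd*, -0.132 to 0.038 for *EcR*, -0.97 to 0.181 for *Hr4* and -0.061 to 0.115 for *ftz-f1*; voom gave -0.044 for *shd*, and batch 1 alone gave -0.172 for *shd* and 0.041 for *EcR*. At 40% against 20% *shd* kept its sign under all 17 alternatives; its call was lost with voom (-3.17, 0 genes called), with no batch term (-3.23, 0 called) and without any 1 library (-3.63 to -3.0, 0 to 0 called), and batch 2 alone (-2.93) allows no test. On log2 of TPM plus 1 and plus 0.1, *EcR* came to -0.086 and -0.165, *usp* to -0.23 and -0.32, and *Eip75B* to -0.22 and -0.34; with no batch term, *usp* came to -0.17, *Eip75B* to -0.31 and *ftz-f1* to -0.28. Without 1 library *usp* ranged from -0.093 to 0.21 and *Eip74EF* from -0.25 to 0.018; batch 2 alone gave 0.02 for *Eip74EF*. At 40% against 10% *shd* was called, as 1 of the 8, by DESeq2 (-3.23), with no filter (-3.29), without mitochondrial transcripts (-3.25), with effective length offsets (-3.44) and on TPM plus 1 (-1.23) and plus 0.1 (-3.003); of 10068 features DESeq2 then called 815 and the TPM scales 1089 and 1715, against 117 in the main test. There the TPM scales gave -0.072 and -0.13 for *EcR*, -0.15 and -0.24 for *Eip75B*, and -0.019 and -0.005 for *ftz-f1*; no batch term gave -0.225 for *Eip75B* and -0.34 for *ftz-f1*; the length trend removed gave 0.048 for *usp*, which ranged from -0.13 to 0.17 without 1 library. Between batches 3 genes were called with the length trend removed, 8 on TPM plus 0.1 (4478 and 7805 of 9278 features called), and 3 to 5 without 1 library; *shd* came to -0.041 with no filter, -0.23 with length offsets, -1.16 and -1.55 on the TPM scales and -0.31 to 0.32 without 1 library, *EcR* to -0.45 and -0.74 on the TPM scales, and *Eip74EF* to 0.13 with the length trend removed. For isoform shares at 10% minus 20%, leaving out 1 library gave -13.8 to 2.37 percentage points for EcR-A, -7.90 to 6.84 for EcR-B1, -8.99 to 18.9 for EcR-B2, -2.63 to 2.54 for *Eip75B-RC* and -2.28 to 5.36 for *Eip75B-RD*; shares of expected counts gave 0.575 for *Eip75B-RC*. On the TPM scales the median of all features moved by up to -0.41 at 40% oxygen and by -1.35 between batches. The causes of these changes were not tested. A single 40% library, 8 counts of *shd* in it and under 10 counts of *br* and *Hr4* in all of batch 2 limit what can be read at 40% oxygen.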

Other observations

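Among the cell type markers examined beside the ecdysone genes, the markers of other midgut cells included genes called at 40% oxygen. Over all features 3.17% were called at 40% against 20%. That share rests on a single 40% library and fell when any 1 of the other libraries was left out. In the enteroendocrine list of 11 hormone and identity genes, *CCHa2*, a peptide hormone gene, stood at 264.6 CPM at 40%, against 138, 138 and 112.3 CPM at 20% (log2 1.16, SE 0.16, adjusted p = 0.0419). *Orcokinin*, another gut peptide gene, stood at 9.51 CPM at 40%, against 17.0, 15.1 and 20.6 CPM at 20% (log2 -1.09, SE 0.15, adjusted p = 0.0398). The 2 genes thus lay on opposite sides of the 20% libraries, and the other 9 genes of the list were not called (4 of 11 above 0 and 7 below, median -0.43). Of the enterocyte markers, *LManII*, a mannosidase gene, stood at 139 CPM at 40%, against 1155, 1159 and 496 CPM at 20% (log2 -2.12, SE 0.30, adjusted p = 0.0440); 6 of the 8 lay below 0, with a median of -0.63. Of the fat body markers, *to*, a feeding-related gene, stood at 14.7 CPM at 40%, against 7.50, 8.07 and 1.89 CPM at 20% (log2 3.05, SE 0.14, adjusted p = 0.00874). At 10% oxygen *to* stood at 18.5, 18.6 and 3.88 CPM. Replicates 1 and 2, above the 40% library, are batch 1. In batch 2, which holds the 40% library, the level was 3.88 CPM at 10% and 14.7 CPM at 40%. With batch in the fit, the log2 fold change at 40% against 10% was 1.85. The 8 fat body markers tested were split, 4 above 0 and 4 below, with a median of 0.12, and the yolk protein genes *Yp1* (-0.57, SE 0.74) and *Yp2* (-1.37, SE 0.94) were not called. The fat body sum was 1207 CPM at 40%, against 654, 623 and 1395 CPM at 20%. *LManII* and *to* were picked after their values were seen. No marker of progenitors, neurons, haemocytes, muscle, trachea or ovary was called at 40% against 20%, and none of any list at 10% against 20%.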
